A study of Mus musculus with 12 samples.

Results

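Tcl1 family genes here means the 6 mouse genes of the cluster on chromosome 12: Tcl1, Tcl1b1, Tcl1b2, Tcl1b3, Tcl1b4 and Tcl1b5. Mtcp1 was counted in the list of AKT pathway genes and not among them. They were chosen by name, and all RefSeq transcripts of these symbols were taken. All 6 were found among 25091 genes and repeats, with 10 transcripts between them. Tcl1 had 5 annotated transcripts and each Tcl1b gene had 1. All 6 passed the filter on low counts in both experiments.

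TCL1 proteins are small barrel-shaped proteins that bind AKT kinases and raise their activity. Human TCL1A is known as an oncogene of T-cell leukaemia. In the mouse, the family is known for its expression in oocytes and early embryos, and embryos of females without Tcl1 often arrest during cleavage. LSM1 belongs to a ring of LSM proteins in the cytoplasm that binds the 3′ end of deadenylated mRNA and promotes its decapping and decay.

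The series comprised 12 libraries in 6 groups of 2, all from mouse zygotes of superovulated B6D2F1 females (8 to 10 weeks old), collected 18 to 20 h after hCG. In total RNA-seq, zygotes that received Lsm1 siRNA (Lsm1_KD) were compared with zygotes that received scramble siRNA (Ctrl). In RIP-seq, RNA bound to an anti-FLAG gel (IP) and RNA of the same lysate (Input) were sequenced from zygotes given Lsm1_3XFlag mRNA (FLAG) and from zygotes given Lsm1 mRNA (Ctrl). The ages and times above are from the labels. The study's methods give BDF1 males, females of 6 to 8 weeks and zygote collection at 20 h after hCG. Each library was a pool of embryos or oocytes, and injected cells also held their own LSM1. The labels place the injections in zygotes, while the study's scheme for the knockdown used germinal vesicle oocytes, then matured and fertilized in vitro. The study's RIP methods speak of oocytes.

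Library totals ranged from 4636492 to 13968315 estimated counts in RNA-seq and from 9865512 to 31586450 in RIP-seq. All 12 oocyte and zygote markers were detected in each library. Markers of cumulus and granulosa cells summed to 37.7 to 56.4 counts scaled to a common library total (CPM) in RNA-seq, against 10761 to 12664 CPM for the oocyte and zygote markers. In RIP-seq the former summed to 69.7 to 122 CPM. FLAG IP replicate 1 stood apart. Repeats took 12.7% of its counts, against 2.63% in FLAG IP replicate 2 and 1.08% to 1.96% in Ctrl IP, and its factor from the trimmed mean of M-values (TMM), which scales each library to the others, was 1.87. The titles of the Ctrl RIP libraries name IgG, while their treatment label names untagged Lsm1 mRNA. Lsm1 stood at 8.94 and 10.7 TPM (counts per length, scaled to a common total) in Ctrl Input against 6003 and 7940 TPM in FLAG Input, so the Ctrl RIP libraries showed no excess of Lsm1 RNA. Labels and study also name different RNA-seq library kits.

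The genes lie side by side on mouse chromosome 12 (GRCm38), in a cluster of 75.7 kb from 105147019 to 105222737. Tcl1b2, Tcl1b1, Tcl1b5, Tcl1b3 and Tcl1b4 follow each other on the plus strand, and Tcl1 lies last, on the minus strand. Each gene has 4 exons in its main transcript, of which exon 2 is coding throughout and 171 nt long, or 165 nt in Tcl1b1. Exon 2 of Tcl1 is shown here (chr12:105218639-105218849, minus strand, GRCm38, sequence from RefSeq) because an annotated Tcl1 transcript lacks it and the estimated balance of the transcripts differed between the groups. Exon bases are in capitals and 20 bases of each flanking intron are in lower case.
Tcl1 exon 2: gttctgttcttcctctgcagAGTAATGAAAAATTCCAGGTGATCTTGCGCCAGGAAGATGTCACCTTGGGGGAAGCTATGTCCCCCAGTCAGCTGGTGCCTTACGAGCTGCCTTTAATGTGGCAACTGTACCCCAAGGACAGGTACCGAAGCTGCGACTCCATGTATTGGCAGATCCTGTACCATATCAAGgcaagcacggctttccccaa
In NM_001309484, exon 1 (105222533 to 105222737) is joined directly to exon 3 (105218223 to 105218292). The junction is shown with the last 30 bases of exon 1 in lower case and the first 30 bases of exon 3 in capitals.
Tcl1 junction without exon 2: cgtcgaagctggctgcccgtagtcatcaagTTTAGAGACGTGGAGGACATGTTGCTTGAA
The second exons of the Tcl1b genes, shown next, were 76.4% to 98.2% identical in pairs. Capitals mark bases that fewer than 3 of the 5 Tcl1b genes share at that place of the alignment.
Tcl1b1 (chr12:105164401-105164565): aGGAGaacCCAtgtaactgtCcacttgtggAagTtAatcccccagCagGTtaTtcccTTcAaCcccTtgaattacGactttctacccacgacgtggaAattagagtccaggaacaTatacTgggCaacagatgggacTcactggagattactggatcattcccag
Tcl1b2 (chr12:105152999-105153169): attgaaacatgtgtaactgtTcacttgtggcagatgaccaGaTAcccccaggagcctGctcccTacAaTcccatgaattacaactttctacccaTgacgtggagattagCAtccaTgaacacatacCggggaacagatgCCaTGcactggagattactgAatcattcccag
Tcl1b3 (chr12:105193416-105193586): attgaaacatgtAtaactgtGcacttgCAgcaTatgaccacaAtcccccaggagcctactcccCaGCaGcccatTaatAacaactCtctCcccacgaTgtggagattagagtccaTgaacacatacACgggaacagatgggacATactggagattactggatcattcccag
Tcl1b4 (chr12:105204642-105204812): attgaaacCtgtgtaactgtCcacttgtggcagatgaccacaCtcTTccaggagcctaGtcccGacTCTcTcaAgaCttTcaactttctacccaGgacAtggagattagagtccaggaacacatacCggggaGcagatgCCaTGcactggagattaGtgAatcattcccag
Tcl1b5 (chr12:105178920-105179090): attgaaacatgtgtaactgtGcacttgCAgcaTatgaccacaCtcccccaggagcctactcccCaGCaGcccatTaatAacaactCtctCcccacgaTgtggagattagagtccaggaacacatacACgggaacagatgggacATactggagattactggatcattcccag

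Exon 2 of Tcl1b3 and of Tcl1b5 were 98.2% identical, the closest pair of the 10 Tcl1b pairs, which began at 76.4%. Over whole transcripts the Tcl1b genes were 84.1% to 90.7% identical to each other, and Tcl1 was 44.6% to 46.1% identical to them in the same alignment. Of the 31-base words in a transcript, 57.6% (Tcl1b3), 57.9% (Tcl1b2), 67.1% (Tcl1b5), 71.2% (Tcl1b1) and 83.0% (Tcl1b4) occurred in no other family gene. Tcl1b3 shared 234 words with Tcl1b2 and 210 with Tcl1b5. Tcl1 shared none with the Tcl1b genes, and no family word occurred in a transcript of any other gene in the GENCODE set searched. Tcl1b reads that lie wholly in shared stretches can therefore be split among the genes only by estimate. Levels of single Tcl1b genes are uncertain to that extent, whereas Tcl1 does not have this limit.

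In Ctrl zygotes the family was among the most abundant RNAs. Tcl1 reached 7109 and 8269 TPM in the Ctrl libraries (mean 7689 ± 821, SD, n = 2), which placed it 10th and 8th of all features. Tcl1b1 followed with 4211 and 4619 TPM, and Tcl1b2 with 3000 and 3166 TPM. Tcl1b3 had 1263 and 1658 TPM, and Tcl1b4 had 680 and 1193 TPM. Tcl1b5 was the lowest member with 372 and 401 TPM. The libraries of neighbours in this order did not overlap in Ctrl, although the gap between Tcl1b3 and Tcl1b4 was small beside the spread of either gene. Together the 6 genes took 1.66% and 1.93% of all TPM in Ctrl, and Tcl1 alone took 42.7% and 42.8% of the family's TPM.

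In Lsm1_KD the family took 1.11% and 1.26% of all TPM. Tcl1 had 4298 and 5663 TPM, Tcl1b1 had 3143 and 3265 TPM, and Tcl1b2 had 1880 and 2072 TPM. Tcl1b3 had 508 and 640 TPM, so it lay below Tcl1b4 (931 TPM) in replicate 1 and level with it (640 TPM) in replicate 2. Tcl1b5 had 370 and 347 TPM. On the TPM scale the median feature also lay lower in Lsm1_KD, by a log2 difference of -0.23 on log2(TPM + 1), and this shift is part of each TPM difference.

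Levels in the Input libraries were lower throughout. Tcl1 had 914 and 1021 TPM in Ctrl Input and 1048 and 885 TPM in FLAG Input. Tcl1b1 lay between 331 and 439 TPM over the 4 Input libraries, Tcl1b2 between 215 and 275, Tcl1b3 between 179 and 254, Tcl1b4 between 68.9 and 107, and Tcl1b5 between 34.1 and 57.4. The order of the genes was that of Ctrl RNA-seq in every Input library except FLAG Input replicate 1, in which Tcl1b3 (254 TPM) lay just above Tcl1b2 (248 TPM). Ctrl RNA-seq exceeded Ctrl Input 7.51-fold (Tcl1b3) to 12.4-fold (Tcl1b2) in mean TPM. RNA-seq and RIP-seq used different library kits and injections, which cannot be told apart from this difference, and no test was made across them.

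**Figure D1:**
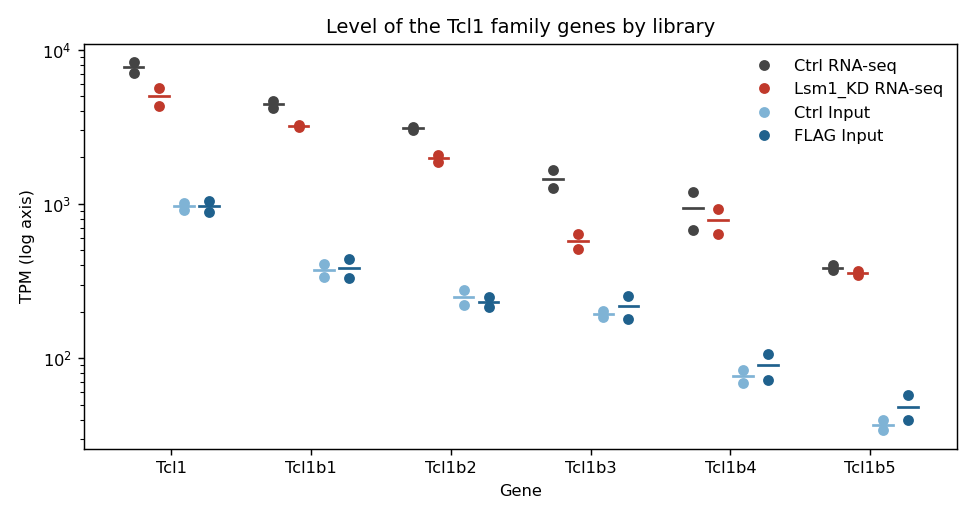
TPM of each gene (log axis) in the Ctrl and Lsm1_KD RNA-seq and in the Ctrl and FLAG Input libraries; points are libraries and bars are means of 2. Tcl1 was the highest gene in every group, from 7689 TPM in Ctrl RNA-seq, and Tcl1b5 the lowest.

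Knockdown was checked first on its target. Lsm1 had 63.6 and 71.0 TMM-normalized CPM in Lsm1_KD and 143 and 147 CPM in Ctrl, a log2 fold change of -1.10 (SE 0.22, adjusted p = 0.0118, edgeR). TMM-normalized CPM is the scale of the comparisons that follow, each tested with the quasi-likelihood test of edgeR over all 11335 features and adjusted over all of them. A gene was called at an adjusted p under 0.05. In pooled embryos, less RNA per cell and fewer cells that hold it cannot be told apart.

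Tcl1b3 was the only member called in Lsm1_KD, and it fell in both libraries. Tcl1b3 had 350 and 488 CPM in Ctrl (mean 419 ± 98.2) and 172 and 228 CPM in Lsm1_KD (mean 200.2 ± 39.6, SD, n = 2 each). The log2 fold change was -1.06 (SE 0.23, adjusted p = 0.0187, edgeR). The groups did not overlap, and the higher Lsm1_KD library lay below the lower Ctrl library. Over all features, 4.56% were called lower and 6.45% higher. Without Ctrl replicate 2, Tcl1b3 was no longer called (log2 fold change -0.83, adjusted p = 0.0554, edgeR). With a library left out, its group has 1 library, which is assumed to vary like the libraries of the other groups in the fit. After correction for a length trend the estimate for Tcl1b3 was -1.74 (adjusted p = 0.00283, edgeR).

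Tcl1 was lower in Lsm1_KD without passing the test. It had 3486 and 4387 CPM in Ctrl and 2389 and 3312 CPM in Lsm1_KD. The groups did not overlap, but the lower Ctrl library and the higher Lsm1_KD library were close. The log2 fold change was -0.47 (SE 0.22, adjusted p = 0.203, edgeR). Without Ctrl replicate 1 it was -0.63, and without Ctrl replicate 2 it was -0.31. Without Lsm1_KD replicate 1 it was -0.27, and without Lsm1_KD replicate 2 it was -0.73.

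Tcl1b1 and Tcl1b2 had smaller differences in the same direction. Tcl1b1 had 1524 and 1769 CPM in Ctrl and 1389 and 1519 CPM in Lsm1_KD (log2 fold change -0.18, SE 0.19, adjusted p = 0.585, edgeR). Tcl1b2 had 1063 and 1189 CPM in Ctrl and 814 and 944 CPM in Lsm1_KD (log2 fold change -0.36, SE 0.19, adjusted p = 0.251, edgeR). For both genes the Lsm1_KD libraries lay below the Ctrl libraries, by a narrow margin in Tcl1b1. Of all features, 28.6% had both Lsm1_KD libraries below both Ctrl libraries, beside 4 of the 6 members.

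Tcl1b4 and Tcl1b5 gave no direction that held across scalings. Tcl1b4 had 247 and 460 CPM in Ctrl and 414 and 299 CPM in Lsm1_KD, and the groups overlapped (log2 fold change 0.01, SE 0.29, adjusted p = 0.985, edgeR). Tcl1b5 had 137 and 156 CPM in Ctrl and 166 and 165 CPM in Lsm1_KD (log2 fold change 0.18, SE 0.20, adjusted p = 0.628, edgeR). Its Lsm1_KD libraries lay above the Ctrl libraries in CPM, as for 29.3% of all features, while on the TPM scale its estimate was -0.11, which is above the median feature. Thus Tcl1b3 and Tcl1b5, whose second exons are nearly the same, had estimates of -1.06 and 0.18, and the difference between the genes was not tested. Over the 6 members the median log2 fold change was -0.27, beside 0.01 over all features, with 1 of the 6 called.

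**Figure D2:**
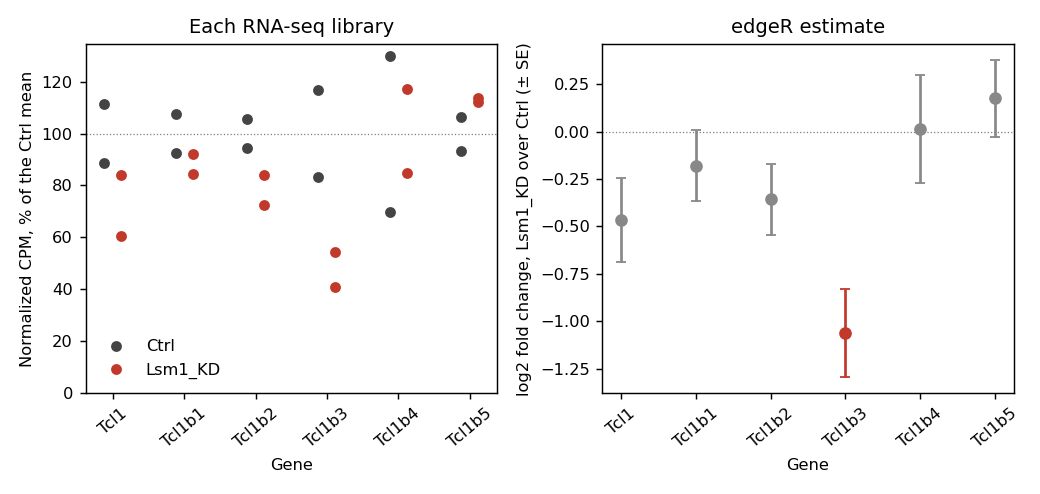
Left, TMM-normalized CPM of each RNA-seq library as a percentage of the mean of the 2 Ctrl libraries; right, log2 fold change of Lsm1_KD over Ctrl with its standard error, in red where the adjusted p was under 0.05. Tcl1b3 (-1.06) is the only gene in red.

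The 5 annotated transcripts of Tcl1 had different estimated proportions in Lsm1_KD and Ctrl, a contrast singled out after its values were seen. The main transcript, NM_009337, holds all 4 exons and a coding sequence of 351 nt in exons 1 to 3. NM_001309484 lacks exon 2, and its annotated coding sequence of 309 nt lies in exons 3 and 4. NM_001309485 uses a shorter exon 2 of 122 nt, NM_001289468 lacks exon 3, and NR_110339 is non-coding.

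**Figure D3:**
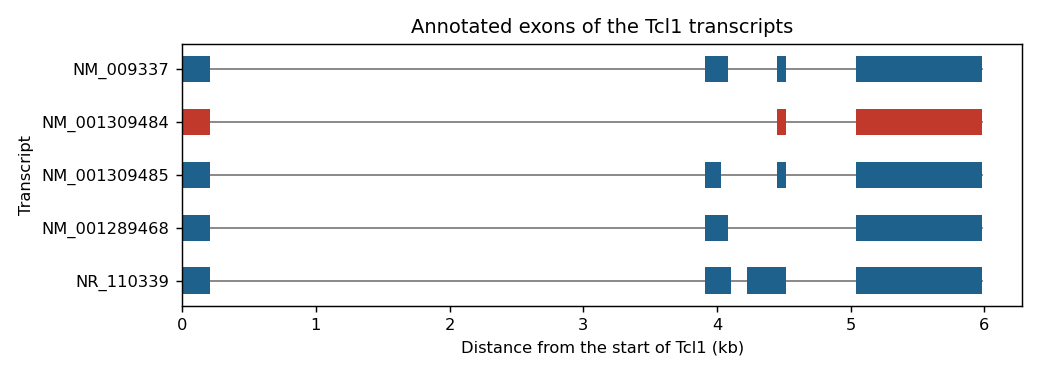
Annotated exons (boxes) and introns (lines) of the 5 Tcl1 transcripts, to scale, as the distance in kb from the start of the gene. NM_001309484, in red, has no exon between the first exon (205 nt) and the 70-nt exon.

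By estimate, the transcript without exon 2 took most of the Tcl1 TPM in Lsm1_KD. NM_001309484 took 87.1% and 88.7% of Tcl1 TPM in Lsm1_KD, and 39.6% and 21.4% in Ctrl. NM_009337 took 9.01% and 10.3% in Lsm1_KD, and 54.1% and 71.0% in Ctrl. The groups lay far apart, although the Ctrl libraries themselves differed. In TPM, NM_009337 stood at 387 and 582 in Lsm1_KD and at 3848 and 5871 in Ctrl, while NM_001309484 stood at 3745 and 5020 in Lsm1_KD and at 2817 and 1769 in Ctrl. The TPM ratio of NM_001309484 to NM_009337 was 9.67 and 8.62 in Lsm1_KD and 0.732 and 0.301 in Ctrl.

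The call on single transcripts depended on the tool. With each transcript as a feature, NM_009337 had a log2 fold change of -3.06 (SE 0.39, adjusted p = 0.0956, edgeR). In DESeq2, added after seeing the data, it was -3.07 with an adjusted p of 1.35e-15. NM_001309484 had a log2 fold change of 1.21 (SE 0.31, adjusted p = 0.163, edgeR), and DESeq2 gave 1.20 with an adjusted p of 0.0015. In edgeR, 0 of 14580 single transcripts were called and 2775 had an unadjusted p under 0.05, while DESeq2 called 1862 (12.8%). The gene's summed level therefore hid opposite estimates, as a log2 fold change of -0.47 stood over -3.06 and 1.21. NM_001309485 (-2.54), NM_001289468 (-1.60) and NR_110339 (-1.30, SE 2.04) also had edgeR estimates below 0, so only NM_001309484 was higher. DESeq2 called NM_001309485 (adjusted p = 0.0288) and NM_001289468 (adjusted p = 0.0297) lower.

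Shares were compared over 2071 genes with at least 2 transcripts and at least 100 counts in each RNA-seq library. In 53 of them (2.56%), Tcl1 included, a transcript's shares in the 2 groups were at least as far apart as in Tcl1. In Tcl1 the nearest libraries differed by 47.5 percentage points. Only 24 of the 31-base words of NM_001309484, those across the junction shown, are absent from NM_009337, and 195 words of NM_009337 are absent from NM_001309484. Shares are Salmon estimates and no read alignments were used here. The study's methods describe amplification of cDNA from few embryos before RNA-seq.

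In the Input libraries most Tcl1 TPM was assigned to the full transcript. NM_001309484 took 2.33% and 2.81% of Tcl1 TPM in Ctrl Input and 3.22% and 2.70% in FLAG Input, and 1.32% to 4.08% in the 4 IP libraries. NM_009337 took 89.8% to 91.4% in the Input libraries. Ctrl RNA-seq thus lay between Lsm1_KD and Input, with the library kit and injection differing between the experiments.

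**Figure D4:**
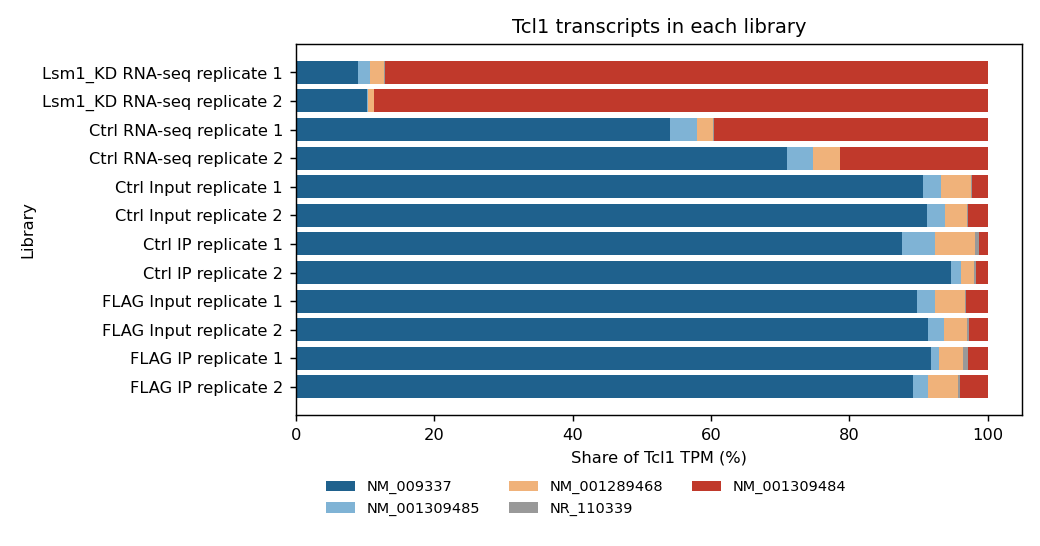
Share of Tcl1 TPM (%) taken by each of its 5 transcripts in the 12 libraries. NM_001309484 (red) takes 87.1% and 88.7% in Lsm1_KD, 39.6% and 21.4% in Ctrl RNA-seq and at most 4.08% in the RIP-seq libraries.

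In the LSM1-FLAG pull-down all 6 members were lower in IP than in Input, and 1 was called. Tcl1b5 had 7.92 and 17.9 TMM-normalized CPM in FLAG IP and 40.01 and 32.8 CPM in FLAG Input. Its log2 ratio was -1.501 (SE 0.40, adjusted p = 0.0239, edgeR over 18972 features). Over all features 5.48% were called lower and 21% higher. The call on Tcl1b5 was lost when FLAG Input replicate 1 (adjusted p = 0.143) or 2 (adjusted p = 0.0661, edgeR) was left out, and was kept without FLAG IP replicate 1 (log2 ratio -1.06, adjusted p = 0.037, edgeR).

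Tcl1 had 109 and 592 CPM in FLAG IP against 1032 and 1027 CPM in FLAG Input (log2 ratio -1.55, SE 0.78, adjusted p = 0.134, edgeR). Tcl1b3 had 13.4 and 82.7 CPM in FLAG IP against 132 and 110.3 CPM in FLAG Input (log2 ratio -1.34, SE 0.63, adjusted p = 0.112, edgeR). The groups did not overlap for any member, as for 30.2% of all features in this direction. The IP libraries differed more from each other than either gene's Input libraries did. The log2 ratios of Tcl1b1, Tcl1b2 and Tcl1b4 were -1.21, -1.32 and -1.28, with adjusted p from 0.0606 to 0.139 (edgeR).

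The lowest values were those of FLAG IP replicate 1, the library that stood apart. In that lysate the members' IP level was 10.1% (Tcl1b3) to 19.8% (Tcl1b5) of Input, and in the lysate of replicate 2 it was 54.6% (Tcl1b5) to 74.9% (Tcl1b3). Over all features the median log2 ratio of FLAG lysate 1 was 0.56, and over the 4110 features with at least 50 CPM in the Inputs it was -1.72, against -0.46 in FLAG lysate 2 and -0.32 and -0.26 in the Ctrl lysates. Without FLAG IP replicate 1 the log2 ratios were -1.06 to -0.55 with 2 members called beside 20% of all features, and without FLAG IP replicate 2 they were -3.24 to -2.20 with all 6 called beside 64.4% of all features. IP and Input with the same number were taken to come from the same lysate, and the lysate was used as a replicate block. With it, Tcl1b2 (-1.72, adjusted p = 0.0164), Tcl1b3 (-1.85, adjusted p = 0.00419) and Tcl1b4 (-1.49, adjusted p = 0.00421) were called beside Tcl1b5 (-1.60, adjusted p = 0.000971, all edgeR). Of all features 31.9% were called in that fit. Lsm1 RNA itself had 5993 and 139288 CPM in the FLAG IP libraries against 10838 and 16749 CPM in FLAG Input. Blood and lymphoid markers summed to 41.8 CPM in FLAG IP replicate 1 and 3.01 CPM in replicate 2, and oocyte and zygote markers to 2932 and 3329 CPM in the FLAG IP libraries against 6825 and 5962 CPM in FLAG Input, and their part in the result was not tested.

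The members were also lower in IP than in Input in the Ctrl pull-down. Tcl1 had 480 and 595 CPM in Ctrl IP against 1028 and 958 CPM in Ctrl Input, and Tcl1b3 had 61.1 and 60.4 CPM against 122 and 91.3 CPM. The groups did not overlap for any member, as for 27.2% of all features in this direction. The log2 ratios were -0.88 (Tcl1) to -0.76 (Tcl1b2), and none was called (adjusted p 0.352 to 0.664, edgeR, with 0 members at an unadjusted p under 0.05). Of all features 2.13% were called, 2.12% higher and 0.00527% lower. DESeq2 also called 0 members (7.12% of all features), and limma on log2(TPM + 0.1) called 5 (2.35% of all features). The edgeR fit took its estimate of the spread from the RIP-seq libraries of both injections, FLAG IP replicate 1 included. With the 4 Ctrl libraries alone, edgeR called 4 members (17.3% of all features). Tcl1 then had a log2 ratio of -0.84 (SE 0.17, adjusted p = 0.018, edgeR).

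No member was called in the test of FLAG against Ctrl pull-down, the ratio of the IP to Input ratios. The estimates were -0.72 (Tcl1b5) to -0.41 (Tcl1b1), with adjusted p from 0.79 to 0.885 (edgeR). Of all 18972 features 0 were called (0%), 996 (5.25%) had an unadjusted p under 0.05, none of them a member, and DESeq2 called 2. Without FLAG IP replicate 1 the estimates were -0.23 (Tcl1b5) to 0.30 (Tcl1b1), and without FLAG IP replicate 2 all 6 members were called, beside 30.5% of all features. Standard errors of 0.56 to 1.08 mean that differences of this size were not detectable with these libraries.

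**Figure D5:**
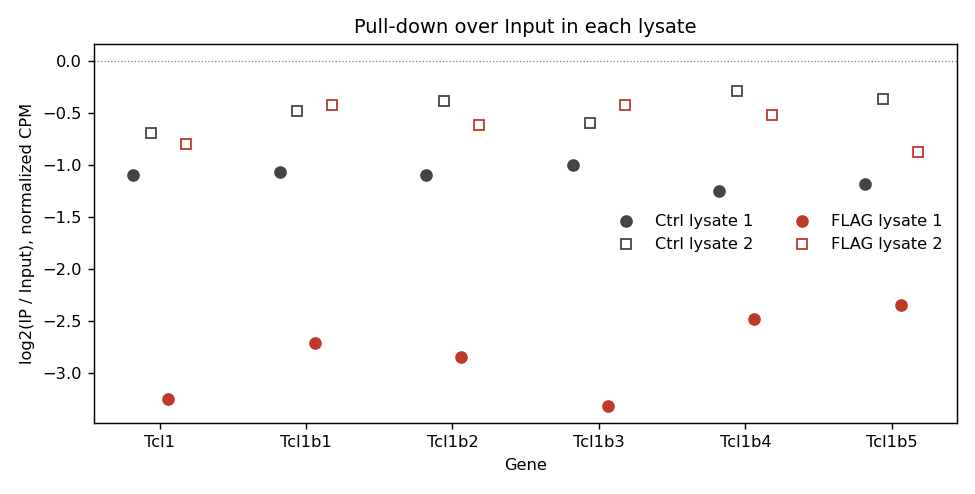
log2 ratio of IP to Input in TMM-normalized CPM for each gene and lysate (Ctrl grey, FLAG red; replicate 1 filled circles, replicate 2 open squares). All ratios are below 0, and those of FLAG lysate 1 are the lowest, from -3.31 to -2.34.

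Injection of tagged Lsm1 mRNA left the members' Input levels with no call. Tcl1 had 1032 and 1027 CPM in FLAG Input and 1028 and 958 CPM in Ctrl Input. The log2 fold changes were -0.07 (Tcl1b2) to 0.42 (Tcl1b5), with SE from 0.39 to 0.76. In this fit the injected Lsm1 itself, at 10838 and 16749 CPM against 18.3 and 18.4 CPM, was not called either (adjusted p = 1, edgeR). Of all features 0 were called by edgeR (0%), 176 (0.928%) had an unadjusted p under 0.05, none of them a member, and DESeq2 called 1.

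AKT kinases are the partners of TCL1 proteins, and a list of 38 genes of the AKT pathway was examined beside the family. In Lsm1_KD, 35 were tested, of which 1 rose and 1 fell, beside 11% of all features called in either direction. Gsk3a, a kinase that AKT inhibits, rose from 28.9 and 28.2 CPM to 72.3 and 76.0 CPM (log2 fold change 1.38, SE 0.25, adjusted p = 0.00859, edgeR). Pik3r1, a regulatory subunit of PI3-kinase, fell from 379 and 391.5 CPM to 219 and 234 CPM (log2 fold change -0.77, SE 0.19, adjusted p = 0.0281, edgeR). The call on Pik3r1 was lost on leaving out Lsm1_KD replicate 1 (adjusted p = 0.0762) or 2 (0.0962) or Ctrl replicate 2 (0.0654), or with the replicate number as a block (adjusted p = 0.0775, all edgeR). With no filter 2 genes of the list were called higher and 3 lower, beside 11.7% of all features called in either direction. In DESeq2 these were 1 and 4, beside 15.5%. In limma they were 1 and 3 with either pseudocount, beside 11.2% on log2(TPM + 1) and 9.83% on log2(TPM + 0.1). The list's median was -0.13, beside 0.01 over all features.

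In FLAG IP over Input, 1 of 37 tested genes of the list rose and 3 fell. Of all features 26.4% were called, 21% higher and 5.48% lower. Phlpp1, a phosphatase that acts on AKT, was higher in IP in FLAG (log2 ratio 2.26, adjusted p = 0.00312) and in Ctrl (2.43, adjusted p = 0.00366, edgeR). Akt1s1 (-1.46), an inhibitor of mTOR complex signalling, Cdc25b (-1.33), a cell cycle phosphatase, and Rheb (-0.93), an activator of mTOR, were lower in FLAG IP (adjusted p 0.0336 to 0.048, edgeR). Leaving out single FLAG libraries, which leaves 1 library in a group, changed how many genes of the list were called lower. DESeq2 called 8 of the list lower and 1 higher, beside 40.1% of all features called in either direction. With limma, 11 were called lower and 0 higher on log2(TPM + 1), beside 14.9% of all features called in either direction. On log2(TPM + 0.1) there were 13, beside 21.1%. The ratio of ratios and the Input comparison called 0 of the 37, by edgeR and by DESeq2. Leaving out FLAG IP replicate 2 leaves 1 library in its group, and the ratio of ratios then called features both in the list and outside it. In the ratio of ratios, Pik3cd, a catalytic PI3-kinase subunit, had -0.84 and Foxo3, a transcription factor that AKT inhibits, -0.95. In the Input comparison these genes had -0.19 and -0.02, and they were the most abundant genes of the list.

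Next to the cluster, the nearest protein-coding gene on the Tcl1b2 side is Glrx5, a mitochondrial glutaredoxin at 106 kb, which rose in Lsm1_KD (log2 fold change 1.58, SE 0.39, adjusted p = 0.0286, edgeR). Its call was lost on leaving out Ctrl replicate 2 (adjusted p = 0.0877) or Lsm1_KD replicate 2 (0.182), with the replicate number as a block (0.0663) and after correction for a length trend (0.0863, edgeR). Beyond it, Syne3 (-0.15, adjusted p = 0.887) and Clmn (-1.08, SE 0.92, adjusted p = 0.492) were not called. On the Tcl1 side, D430019H16Rik at 231 kb had at most 3.13 counts and was not tested. Bdkrb1, a bradykinin receptor (-0.60, adjusted p = 0.274), and Atg2b, an autophagy gene (-0.40, adjusted p = 0.552, edgeR), were not called. None of these neighbours reached the level of Tcl1b5, as the highest mean was 59.7 TPM for Glrx5 in Lsm1_KD.

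The patterns most like that of Tcl1 were sought over the 12 libraries among 11302 other genes, with log2 CPM centred within each experiment. The highest Pearson correlations belonged to Ccdc6 (0.994), Palb2 (0.992), Cnn3 (0.991), Tent4a (0.988) and Cep120 (0.988). For Tcl1b1 they were Tcl1b2 (0.988), Ppp2r5c (0.978), Ccdc6 (0.977), Siah2 (0.976) and Tcl1 (0.976). Tcl1b2 ranked 9th for Tcl1, Tcl1b1 60th and Tcl1b3 163rd, while Tcl1b4 (0.890) and Tcl1b5 (0.889) ranked 1616th and 1639th. The libraries share FLAG IP replicate 1, depth and, for the Tcl1b genes, split reads, and these values are descriptions of likeness only.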

How the data were processed

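The deposited files hold, for each of 12 libraries, estimated counts and TPM per feature, which the authors made with Salmon from trimmed reads; the features are mm10 RefSeq transcripts with repeats added. The labels name Trimmomatic and the study Cutadapt. TPM are shares of each library, so a change in abundant RNAs moves all others.

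Estimated counts were summed by gene symbol (37072 of 37366 transcripts matched, GRCm38 annotation; 294 kept as own features; 347 repeats) and rounded. Features passing filterByExpr entered edgeR's quasi-likelihood fit (version 4.0.16, R 4.3.3) with TMM factors and Benjamini-Hochberg adjustment over all features, one fit per experiment, called at adjusted p under 0.05. The scripts were tested on simulated data. Alternatives were DESeq2 1.42.0, limma 3.58.1 on log2(TPM + 1) and log2(TPM + 0.1), a minimum mean of 50 counts, no filter, length corrections, single transcripts, replicate blocks and leaving out each library. IP and Input with the same number were taken to come from the same lysate. Their deviations correlated only weakly, at 0.11 in FLAG and 0.06 in Ctrl. Depth was as given in the report, and with 2 libraries per group p-values measure the spread between these pools, which may be technical.

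The members and the gene list were chosen with earlier results of these data known. Named were all members, Lsm1, the AKT list genes with the smallest adjusted p (up to 4 per direction, or the 2 most abundant), the nearest neighbours and the 5 genes most like Tcl1 and Tcl1b1. Sequences and exons come from RefSeq on GRCm38, whose transcript versions differ by up to 27 nt from those quantified.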

Additional observations from a re-analysis of the deposited data

How the results depend on the processing

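Beside each count of members called, the share of all features called in the same fit is given in brackets. In Lsm1_KD against Ctrl RNA-seq, 1 member was called (11%), against 2 with no filter on low counts (11.7%, Tcl1b3 and Tcl1), 2 with the length trend taken out (9.99%, Tcl1b3 and Tcl1b2), 0 with each transcript as a feature in edgeR (0%) and 2 in DESeq2 (12.8%, Tcl1 and Tcl1b3), and 0 to 2 without single libraries (5.61% to 10.6%). In FLAG IP over FLAG Input, 1 was called (26.4%), against 3 in the DESeq2 Wald test (40.1%), 4 with no filter (29.1%), 6 with limma on log2(TPM + 1) (14.9%), 6 with log2(TPM + 0.1) (21.1%), 0 with each transcript as a feature in edgeR (0.0264%), 4 with the replicate block by lysate (31.9%), 0 with the 4 FLAG libraries alone (21.1%) and 0 to 6 without single libraries (2.29% to 64.4%). In Ctrl IP over Ctrl Input, 0 were called (2.13%), against 5 with limma on log2(TPM + 0.1) (2.35%), 4 with the 4 Ctrl libraries alone (17.3%) and 0 without any single library (0.532% to 1.94%). In FLAG against Ctrl pull-down, 0 were called (0%), and 0 to 6 without single libraries (0% to 30.5%). FLAG against Ctrl Input gave 0 members under each alternative.

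The log2 fold change of Tcl1b4 in Lsm1_KD turned from 0.01 to -0.020 with no filter, -0.22 in limma with either pseudocount, -0.46 with the length trend taken out, -0.26 without Lsm1_KD replicate 1, -0.38 without Ctrl replicate 1 and -0.014 as a single transcript in edgeR and DESeq2, and lay between -0.38 and 0.50 without single libraries. That of Tcl1b5 turned from 0.18 to -0.11 in limma with either pseudocount and to -0.29 with the length trend taken out. In FLAG against Ctrl pull-down, leaving out FLAG IP replicate 1 turned Tcl1 to 0.10, Tcl1b1 to 0.30, Tcl1b2 to 0.18, Tcl1b3 to 0.27 and Tcl1b4 to 0.11, while leaving out FLAG IP replicate 2 gave -2.36, -1.84, -2.10, -2.38 and -1.56. Between the Inputs, Tcl1b2 turned to 0.016 with no filter and to 0.0062 as a single transcript, and lay between -0.25 and 0.34 without single libraries. Tcl1b1 lay between -0.090 and 0.48 without single libraries, and Tcl1 turned to -0.0040 in limma with either pseudocount. The 5 Tcl1b genes had a median log2 ratio of mean TPM of -0.46 in Lsm1_KD, and -0.58 when summed into 1 feature. The causes of these differences were not tested, beyond the libraries left out.

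With the RNA-seq replicate number as a block, 643 of 11335 features were called, against 1248 without it, and 2616 with the crossed pairing, added after seeing the data because same-numbered libraries deviated with r = -0.11; no member's call changed. Of the AKT list, 1 gene was called higher and 0 lower with the block, and 4 and 4 with the crossed pairing. The block on the 4 Input libraries changed no call of a member, and the lysate block changed no call in Ctrl IP over Input or in the ratio of ratios.

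Each member had at least 145 counts in every library.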
